A study of Rattus norvegicus with 12 samples.

Results

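The probes examined here read 6 miRNAs that are often used as reference, or normaliser, miRNAs in studies of circulating RNA: miR-103, miR-107, miR-191, miR-423, miR-425 and miR-484. They were chosen by name, as every probe that reads rno-miR-103, rno-miR-107, rno-miR-191, rno-miR-423, rno-miR-425 or rno-miR-484 with any arm ending, which gave 6 of the 420 probes for rat miRNAs. The counts came from plasma of 12 female Wistar rats, with 1 sample per rat. The pregnant group held 6 rats killed at gestational age E14.5, aged 103 to 373 days, and the control group held 6 non-pregnant rats aged 110 to 269 days. No drug or genetic change is named for either group. Plasma from both groups was centrifuged repeatedly to clear platelets and received the rice miRNA osa-miR-414 as a spike-in before the RNA was purified. In the nCounter assay each miRNA is ligated to a DNA tag and hybridised to a barcoded reporter probe, and every barcode imaged adds 1 count. The questions were whether each reference miRNA was detected in every rat, whether its level was stable over rats and between groups, and whether the reference miRNAs varied together.

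A reference miRNA is used to correct for differences in the amount of RNA recovered and counted, so it needs to be measurable in every sample and unrelated to the condition under study. miR-103 and miR-107 are paralogues processed from introns of pantothenate kinase genes, and they are known for roles in insulin sensitivity and in repression of Dicer. miR-191 and miR-425 are processed from a shared locus and are expressed widely in blood cells, while miR-423 and miR-484 are ubiquitous miRNAs that have been put forward as normalisers for serum and plasma.

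The mature sequences are printed because they show which reference miRNAs share a seed, the stretch that pairs with target mRNAs, and how little separates miR-103 from miR-107. They were taken from RefSeq (GRCr8), in which all 6 names had an entry, and the seed (bases 2 to 8) is in capitals. The table of counts does not say which arm a probe reads, and 1 arm was printed for each. For miR-423 only the 5p arm had an entry, while the paper's RT-qPCR assay of miR-423 read miR-423-3p. The probe may therefore read an arm other than the one printed.
rno-miR-103-3p: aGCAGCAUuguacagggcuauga
rno-miR-107-3p: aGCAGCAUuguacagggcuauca
rno-miR-191a-5p: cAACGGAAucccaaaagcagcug
rno-miR-425-5p: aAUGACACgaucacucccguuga
rno-miR-423-5p: uGAGGGGCagagagcgagacuuuu
rno-miR-484: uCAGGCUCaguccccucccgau

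The seed GCAGCAU was shared by miR-103 and miR-107, and the other 4 sequences each had a seed of their own among the 6. Over their 23 bases miR-103-3p and miR-107-3p differed by the substitution G22C, counted from 1 at the 5′ end with the base of miR-103-3p first. Mature miR-103-3p lay on the plus strand at chr3:138963278-138963300 in the hairpin Mir103a2, inside Pank2, and the same letters were held by the hairpin Mir103a1, inside Pank3 on chromosome 10. Mature miR-107-3p lay on the minus strand at chr1:241750431-241750453, inside Pank1. On the plus strand of chromosome 8, miR-191a-5p lay at chr8:118142641-118142663 and miR-425-5p at chr8:118143094-118143116. Their hairpins were 366 bases apart, and both were inside Dalrd3. The minus strand of chromosome 10 held miR-423-5p at chr10:62412317-62412340, inside Nsrp1, and miR-484 at chr10:1394915-1394936, where no other annotated gene spanned the hairpin.

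Pregnant rats 5 and 6 stood apart from the other rats. Their endogenous probes summed to 24010 and 30301 counts, against 5163 to 13102 counts in the other pregnant rats and 6969 to 10176 counts in the control rats. Raw counts of cell markers moved with them. Of 8 probes for miRNAs typical of red cells, platelets, liver and lymphocytes, 7 had their highest counts in pregnant rats 5 and 6, and only the liver miRNA miR-122 did not. The median count over all endogenous probes was highest there too, at 12 in both rats against 6 to 9 in the other rats. How many of all endogenous probes peaked in these rats was not counted, so the markers cannot be set apart from the rest. Summed over the 8 probes these markers had 1105 to 3047 counts in control rats and 219 to 9699 counts in pregnant rats, with 6233 and 9699 counts in pregnant rats 5 and 6, and 0 of the 8 were at the lowest count of 1 in every rat. They took 26.0% and 32.0% of the endogenous counts of pregnant rats 5 and 6. The range was 13.8% to 30.3% in control rats and 4.24% to 48.6% over all pregnant rats. The summed share was therefore not highest in pregnant rats 5 and 6, but cell types differed. The red cell share was highest of all in pregnant rat 5, at 11.1%, against 4.64% in pregnant rat 6 and at most 8.30% in control rats. The platelet share was 2.04% and 2.78% in pregnant rats 5 and 6, against at most 1.87% in control rats. Liver and lymphocyte shares were not highest there. The part of these markers in the results below was not tested. Fold changes, stability values, correlations between members and likeness to other probes are given with and without pregnant rats 5 and 6, while the scalings to a single reference were run on all 12 rats only. Plasma holds RNA from many tissues, so that release from more cells and more release per cell cannot be told apart.

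Of the 6 reference miRNAs, miR-191 was detected above background in all 12 rats and the other 5 were not. Background was the mean + 1 SD of 4 exogenous probes, in each rat, for which no spike-in had been added. It lay between 12.6 and 32.4 counts. Over all endogenous probes, 38 of 420 (9.05%) were above this level in all 12 rats. The negative control probes of the codeset were not analysed here, so this set of 38, miR-191 included, holds for the stand-in background only. The paper's own set of probes above background in all rats was chosen with the negative controls and did not include miR-191-5p. With the 4 mRNA probes in its place miR-191 was above the mean + 1 SD in 11 rats (5 of 6 pregnant), and with 5 exogenous probes also in 11 (5 of 6 control).

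Raw counts of miR-191 were 33, 27, 40, 45, 30 and 43 in control rats 1 to 6. In pregnant rats 1 to 6 they were 30, 16, 42, 43, 140 and 155. Pregnant rats 5 and 6 were far above every other rat and pregnant rat 2 was the lowest of all, so the control range lay inside the pregnant range. miR-191 was the highest of the 6 probes in 12 of 12 rats and was 37th by mean count among the 420 endogenous probes, between rno-miR-466b at a mean of 55 counts and rno-miR-3589 at 50.9 counts. Counts of different probes also depend on how well each probe captures its target, so this is an order of counts and not of molecules. The narrowest margin was in pregnant rat 2, where 16 counts (95% Poisson interval 9.15 to 26.0) stood 2.76 counts above background. Such intervals cover counting error only. The lower bound of the interval was above background in 8 of 12 rats, and at the stricter background of mean + 2 SD miR-191 was detected in 8 rats, 4 in each group.

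The neighbour of miR-191 in the genome, miR-425, was mostly near the lower end of the count range. Its raw counts were 6, 5, 7, 7, 5 and 1 in control rats 1 to 6. In pregnant rats 1 to 6 they were 8, 7, 2, 4, 26 and 32. Only pregnant rats 5 and 6 were above background, and in the other 10 rats it had at most 8 counts.

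Raw counts of miR-423 were 8, 5, 9, 2, 7 and 4 in control rats 1 to 6. They were 4, 4, 5, 14, 15 and 18 in pregnant rats 1 to 6. The 3 highest counts were all in pregnant rats, but only that of pregnant rat 4 exceeded the background of its own rat, by 0.255 counts. Against the mean of the exogenous probes, a more lenient background, miR-423 was detected in 3 rats, all of them pregnant.

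For miR-103, a reference miRNA in common use, the raw counts were 11, 9, 5, 2, 4 and 6 in control rats 1 to 6. In pregnant rats 1 to 6 they were 5, 6, 7, 7, 7 and 13. No rat was above background, and the groups overlapped almost entirely. Its count in pregnant rat 6, the highest of the 12, was above the mean of the exogenous probes, and this was the case in 1 rat only.

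Counts of miR-484 were the lowest among the members that varied. They were 3, 1, 3, 3, 3 and 4 in control rats 1 to 6 and 2, 4, 4, 1, 7 and 6 in pregnant rats 1 to 6. None was above even the mean of the exogenous probes. The paralogue miR-107 was listed at 1 count in all 12 rats, as were 14 of the endogenous probes, and 1 is the lowest count in the table. No fold change or stability value was therefore given for miR-107. The upper bound of the Poisson interval was below background in 12 of 12 rats for both miR-484 and miR-107, in 9 rats for miR-103 and miR-423 and in 8 rats for miR-425, so in most rats the counts of these probes did not exceed those of probes without a target.

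**Figure D1:**
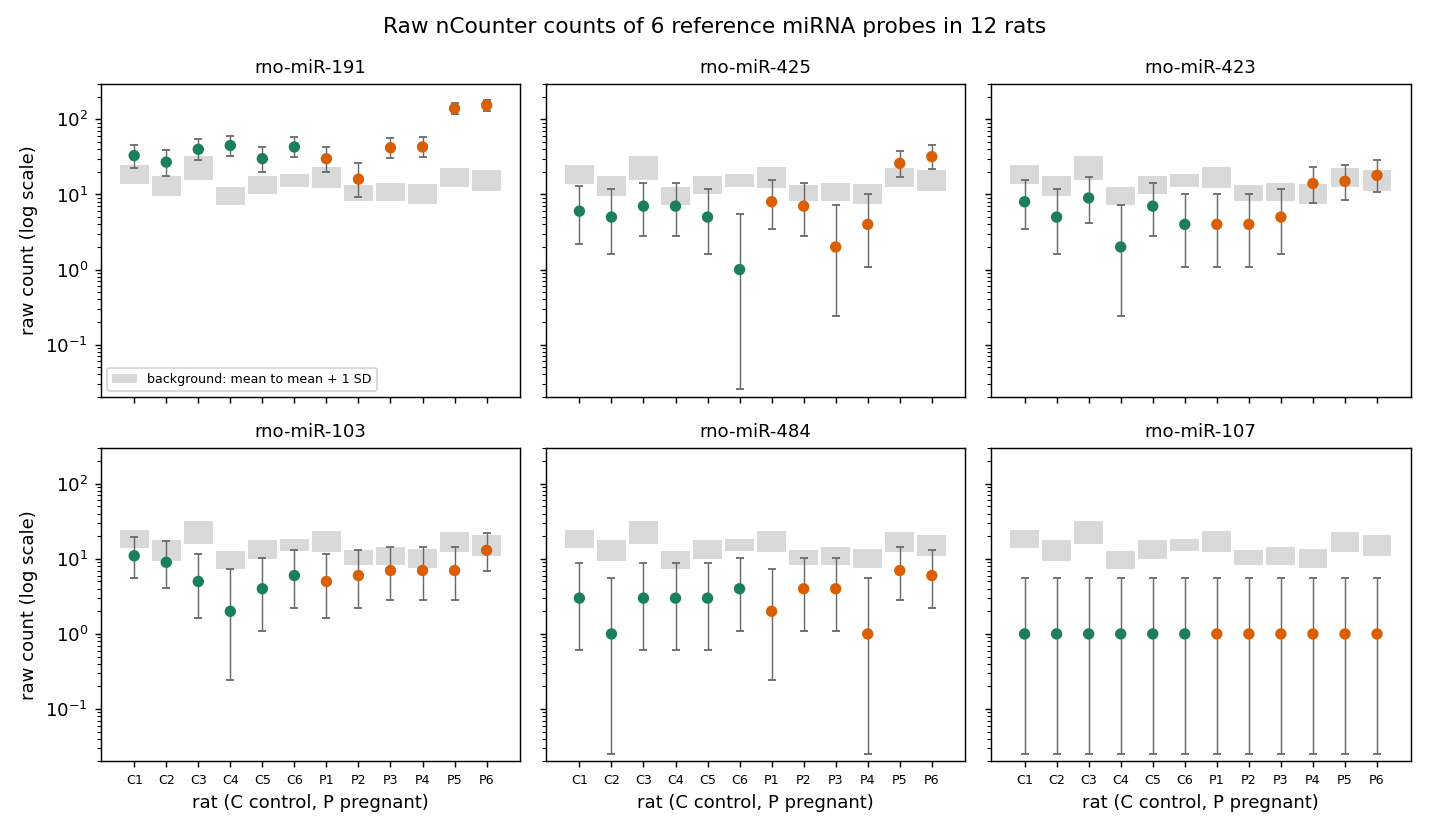
Raw counts (log axis) of the 6 reference miRNA probes in control (C1 to C6, green) and pregnant (P1 to P6, orange) rats, with 95% Poisson intervals as bars and the background of each rat, from the mean to the mean + 1 SD of 4 exogenous probes, as grey boxes. miR-191 stood above the grey box in all 12 rats, miR-425 in P5 and P6, miR-423 in P4, and miR-103, miR-484 and miR-107 in none.

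Stability was described first in raw counts. For miR-191 the coefficient of variation (CV) was 20.3% over the 6 control rats, close to the 16.6% that counting error alone gives at its mean of 36.3 ± 7.37 counts (SD, n = 6). Over the 6 pregnant rats, at 71 ± 60.2 counts (SD, n = 6), it was 84.9%, against 11.9% from counting. The raw spread of miR-191 was thus larger in the pregnant group than in the control group, whose spread was near counting error. For miR-103 the CV over the 12 rats was 44.1%, against 38.3% from counting, and for miR-484 it was 52.1%, against 54.1%. The spread of these probes was therefore about the size of counting error, and any variation of the miRNAs themselves was not detectable at this depth. For miR-423 the CV was 64.7% against 35.5% from counting, and for miR-425 it was 104.5% against 33.0%.

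The raw count of miR-191 rose with the total count of the rat. In log2 raw counts, miR-191 correlated with the summed counts of all other endogenous probes with r = 0.94 over 12 rats (permutation p = 0.00031, adjusted over the 5 varying members p = 0.00155). Spearman's rho was 0.60 (permutation p = 0.0438, adjusted p = 0.0793). Without pregnant rats 5 and 6, the farthest from the median total, r was 0.70 (permutation p = 0.033). The relation was seen in the pregnant rats (r = 0.99, exact permutation p = 0.00278, n = 6) but not in the control rats (r = -0.06, exact permutation p = 0.901, n = 6), whose totals covered a narrow range; the difference between the groups was not tested. As a share of the endogenous counts miR-191 took 0.414% ± 0.104 (SD, n = 6) in control rats and 0.417% ± 0.112 (SD, n = 6) in pregnant rats, with ranges of 0.269% to 0.548% and 0.310% to 0.583%. The shares of the groups therefore overlapped. Against the same total, r was 0.67 for miR-423 (permutation p = 0.0150, adjusted p = 0.0376) and fell to 0.26 without pregnant rats 5 and 6 (permutation p = 0.477). For miR-425, miR-103 and miR-484 r was 0.62, 0.49 and 0.43, with adjusted permutation p of 0.0544, 0.138 and 0.162. With pregnant rats 5 and 6 left out it was -0.21 for miR-425, 0.24 for miR-103 and -0.28 for miR-484 (permutation p = 0.531, 0.476 and 0.427), so the sign turned for miR-425 and miR-484.

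**Figure D2:**
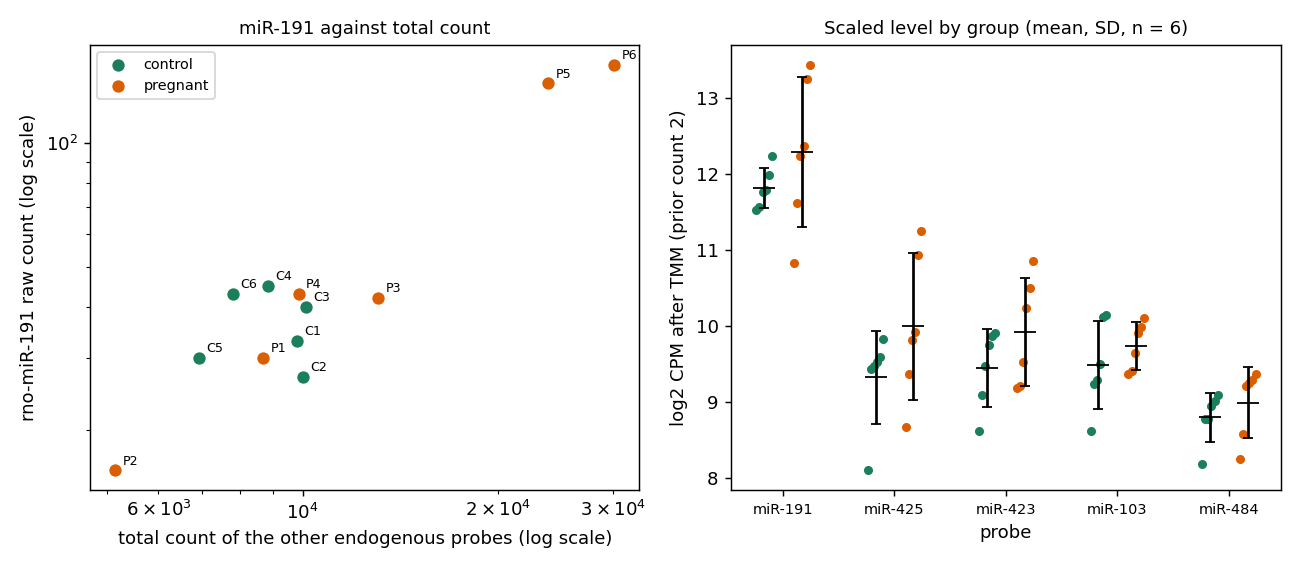
Left, raw count of miR-191 against the total count of the other endogenous probes in each rat (both axes log), with P5 and P6 at the top right. Right, level of 5 reference miRNAs in log2 CPM after TMM scaling in control (green) and pregnant (orange) rats, with the mean and SD of each group (n = 6) in black; the groups overlap for all 5.

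To ask whether pregnancy changed the reference miRNAs, pregnant and control rats were compared with edgeR's quasi-likelihood test after TMM scaling, which centres the fold changes of most probes near 0. Levels were expressed as CPM, counts scaled to a common library size. A probe was tested where 6 or more rats had a minimum of 10 counts. Among the 187 endogenous probes tested, 0 were called at an adjusted p under 0.05 (0%). Without adjustment 11 of the 187 were under 0.05 (5.88%), 10 higher and 1 lower in pregnant rats. This balance depended on the scaling: with library size alone 13 were under 0.05, 1 higher and 12 lower, and with upper quartile scaling 14, 3 higher and 11 lower. DESeq2, limma-voom, an exact permutation test and the methods' t-test called 0 as well, with 8, 6, 5 and 1 probes under 0.05 without adjustment. Only miR-191 passed the filter on low counts; the 4 other varying members were taken from a fit on all 420 probes, in which 20 (4.76%) were under 0.05 without adjustment.

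None of the 5 varying members was called, and 1 of the 5, miR-425, was under 0.05 without adjustment. For miR-191 the log2 fold change of pregnant over control was 0.68 (SE 0.35, edgeR adjusted p = 0.732), a ratio of 1.60. The mean was 3463 ± 695 CPM (SD, n = 6) in control rats and 5801 ± 3670 CPM in pregnant rats, and 4 of 6 pregnant rats were above the control mean in CPM (exact permutation p = 0.284, two-sided). Without pregnant rats 5 and 6 its log2 fold change was 0.05 (SE 0.26, edgeR adjusted p = 0.936), and with library size in place of TMM it was -0.01. The median log2 fold change of all 187 probes moved from 0.05 to -0.33 with this change of scaling, so miR-191 stood above the median probe under both.

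For miR-425 the log2 fold change was 1.17 (SE 0.49, edgeR adjusted p = 0.835). Its mean was 497 ± 213 CPM in control rats and 1037 ± 795 CPM in pregnant rats (SD, n = 6 each). It also rested on pregnant rats 5 and 6, without which the log2 fold change was 0.17 (SE 0.45, edgeR adjusted p = 0.987). For miR-423 the log2 fold change was 0.69 (SE 0.41, edgeR adjusted p = 0.835), and it was 0.37 (SE 0.49) without those rats. For miR-103 the log2 fold change was 0.22 (SE 0.35, edgeR adjusted p = 0.996) and for miR-484 0.41 (SE 0.33, edgeR adjusted p = 0.945). Without pregnant rats 5 and 6 these values were 0.17 (SE 0.41) and 0.11 (SE 0.37). Under library size the log2 fold changes of miR-103 and miR-484 turned to -0.30 and -0.21. The groups overlapped for all 5, and 0 of the 187 tested probes (0%) had groups that did not overlap. Two-sided exact permutation tests gave p = 0.182 for miR-425, 0.214 for miR-423, 0.377 for miR-103 and 0.407 for miR-484, each with 4 of 6 pregnant rats above the control mean in CPM. An adjusted p above the threshold does not show equal levels in pregnant and control rats.

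Age differed among the rats, and 4 rats of each group were under 120 days. The younger pregnant rats included pregnant rats 5 and 6, both aged 110 days. Values from the younger rats are therefore not independent of those 2 rats. Among these 8 rats the log2 fold change was 0.72 for miR-191 (SE 0.45), 1.42 for miR-425 (SE 0.52), 0.94 for miR-423 (SE 0.47), 0.69 for miR-103 (SE 0.44) and 0.19 for miR-484 (SE 0.41), and 0 probes were called. With age as a covariate over all rats the values were 0.72 for miR-191, 1.16 for miR-425, 0.69 for miR-423, 0.20 for miR-103 and 0.42 for miR-484.

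Stability was then ranked with NormFinder, which combines the variation within and between groups into a stability value in log2 units, where lower is more stable. It was run on log2 CPM of the 187 tested probes and the 4 varying members outside the filter. Over the 187 tested probes the median stability value was 0.182. miR-484 was 85th of these probes with 0.169, miR-191 was 109th with 0.194, miR-103 was 114th with 0.197, miR-423 was 135th with 0.216 and miR-425 was 161st with 0.283. The 5 varying members therefore lay in the middle and lower ranks. The 5 most stable probes were miR-200a (0.0569), miR-431 (0.0830), miR-151 (0.0831), miR-98 (0.0874) and miR-369-3p (0.0940). None of these was a member, their mean counts were 14.9 to 23.8, and 0 of the 5 were among the 38 probes above background in all 12 rats. The paper reports miR-431 as higher in pregnant rats by RT-qPCR and as lower by some of its nCounter workflows. The stability value of miR-431 here does not show that it is unaffected by pregnancy. A prior count of 2 pulls low counts together, and with a prior count of 0.5 miR-484 moved to 140th and miR-103 to 135th, while miR-191 was 98th.

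Compared with probes of like abundance, within 1.25-fold in mean count, miR-191 was less stable than 6 of 11, whose median was 0.173. miR-425 was less stable than all 21 of its probes, whose median was 0.182. Its SD in log2 CPM was 0.61 in control and 0.96 in pregnant rats, and that of miR-191 was 0.26 and 0.98. Without pregnant rats 5 and 6, miR-191 was 47th of all probes in the run. When NormFinder was run only on the 38 probes above background in all 12 rats, as a choice of normalisers would require, miR-191 was 3rd of 38 with a stability value of 0.152. It was 2nd of the same 38, with 0.147, when pregnant rats 5 and 6 were left out. Both ranks hold for the stand-in background only, since the paper's own set did not include miR-191-5p.

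**Figure D3:**
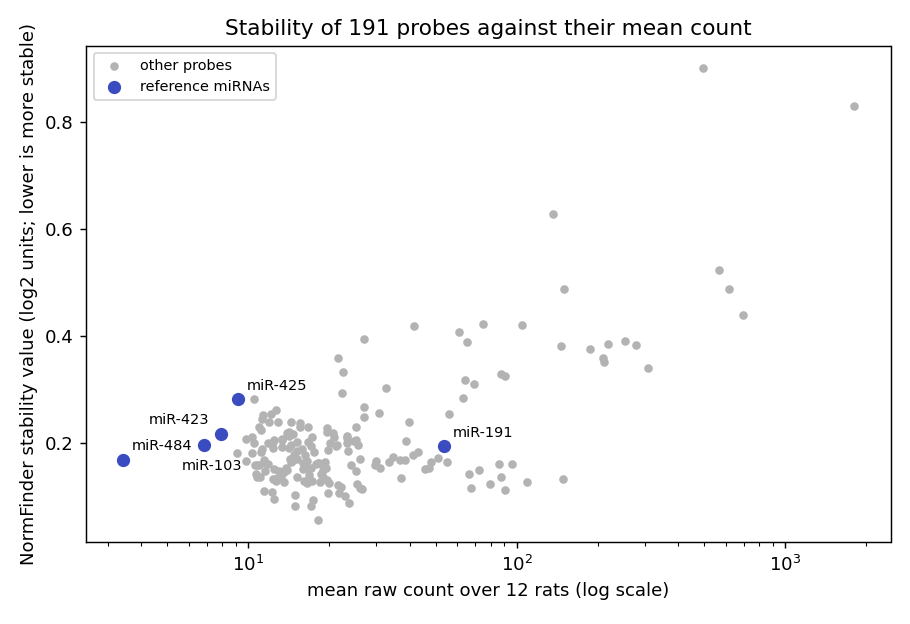
NormFinder stability value (log2 units, lower is more stable) against mean raw count over 12 rats (log axis) for the 187 tested probes and 4 further members, with the 5 reference miRNAs that varied in blue. They lie between 0.169 and 0.283, while the most stable probe is at 0.0569.

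No pair of reference miRNAs varied together beyond what the permutation test allows after adjustment. Over the 10 pairs of the 5 varying members, Pearson's r in log2 CPM was between -0.25 and 0.53, and the lowest adjusted permutation p was 0.292. The pair miR-191 and miR-423 had r = 0.53 (permutation p = 0.0719) and rho = 0.48 (permutation p = 0.116). Without pregnant rats 5 and 6 its r was 0.24 (permutation p = 0.497). In control rats it was -0.79 and in pregnant rats 0.75 (exact permutation p = 0.0625 and 0.104, n = 6 each), so the sign was not the same within the groups.

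The genomic neighbours miR-191 and miR-425 had r = 0.52 (permutation p = 0.0820) and rho = 0.20 (permutation p = 0.543). Without pregnant rats 5 and 6 their r was -0.40 (permutation p = 0.250), so the positive value rested on those rats. Within groups it was -0.10 in control rats and 0.56 in pregnant rats (exact permutation p = 0.803 and 0.249, n = 6 each). The pair miR-103 and miR-423 had r = 0.51 (permutation p = 0.0877) and rho = 0.24 (permutation p = 0.445), with r = 0.50 in control rats and 0.53 in pregnant rats (exact permutation p = 0.304 and 0.240, n = 6 each). Without control rats 2 and 4, the farthest from the median of miR-103, its r was 0.36 (permutation p = 0.297). With pregnant rats 5 and 6 left out instead, its r was 0.52 (permutation p = 0.121).

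miR-103 and miR-191 had no detectable relation over the 12 rats, with r = 0.03 (permutation p = 0.920) and rho = -0.13 (permutation p = 0.681). In the 6 control rats r was -0.90 (exact permutation p = 0.0194) and in the 6 pregnant rats 0.29 (exact permutation p = 0.546), both without adjustment over the 10 pairs. With library size in place of TMM the r over the 12 rats was -0.65 (permutation p = 0.0217), so the value depended on the scaling. In raw counts, which share the depth of each rat, r was 0.29 for miR-103 and miR-191, 0.63 for miR-191 and miR-423, 0.57 for miR-191 and miR-425 and 0.66 for miR-103 and miR-423, with adjusted permutation p of 0.142 or more.

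Likeness was searched among the tested probes only, and miR-191 was the only member among them. The tested probes most like miR-191 over the 12 rats were miR-215 (r = 0.97), miR-93 (r = 0.95) and miR-203 (r = 0.95). This search could name no other member for miR-191. In the pairs above, the r of the other varying members with miR-191 was 0.53 or less. Of all 187 tested probes, miR-191 ranked 27th in likeness to miR-423, 30th to miR-425, 29th to miR-484 and 92nd to miR-103. miR-103 was most like miR-152 (r = 0.79), miR-540 (r = 0.63) and let-7a (r = 0.59). The nearest to miR-423 were miR-21 (r = 0.74), miR-449c-5p (r = 0.73) and miR-3562 (r = 0.73). For miR-425 they were miR-21 (r = 0.76), the red cell miRNA miR-144 (r = 0.74) and the endothelial and platelet miRNA miR-126 (r = 0.73). For miR-484 they were miR-3586-3p, miR-295 and miR-98, with r between 0.66 and 0.67. When pregnant rats 5 and 6 were left out, the r of miR-191 with miR-215, miR-93 and miR-203 was 0.92, 0.90 and 0.87. For miR-425 it was 0.35 with miR-21, 0.11 with miR-144 and 0.24 with miR-126, so the likeness of miR-425 to these 3 rested on those rats. For the probes named for miR-103, miR-423 and miR-484 it was between 0.56 and 0.75. These are the highest of many values over the same 12 rats and are given as a description.

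What a choice of reference would do to the scaling was shown by the conversion factor, the mean of a probe over the rats divided by its count in a rat, by which all counts of the rat would be multiplied. For several probes their geometric mean took the place of the count. The other 37 probes above the stand-in background in all rats are called total RNA normalisers here. They are not the paper's set of that name, which was chosen with the negative control probes. From these 37 probes, without miR-191, the factor ran from 0.505 to 2.15. From miR-191 alone it ran from 0.346 to 3.35, and within the control rats from 1.19 to 1.99. Pregnant rat 6 had the lowest and pregnant rat 2 the highest factor by both. The factor from miR-191 was 0.669 to 1.75 times that from total RNA.

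Factors from the members below background departed further from those of total RNA. From miR-103 the factor was between 0.526 and 3.42, from miR-423 between 0.440 and 3.96, from miR-484 between 0.488 and 3.42 and from miR-425 between 0.286 and 9.17. Relative to the total RNA factor they were 0.529 to 3.09 times for miR-103, 0.521 to 3.58 times for miR-423, 0.396 to 3.15 times for miR-484 and 0.567 to 6.99 times for miR-425. A difference of 1 or 2 counts moved such factors by a large fold: the single count of miR-425 in control rat 6 gave the factor of 9.17. The raw count ratio of miR-191 to miR-103 ran from 2.67 to 22.5 over the rats, that of miR-191 to miR-423 from 3.07 to 22.5 and that of miR-191 to miR-425 from 2.29 to 43.

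**Figure D4:**
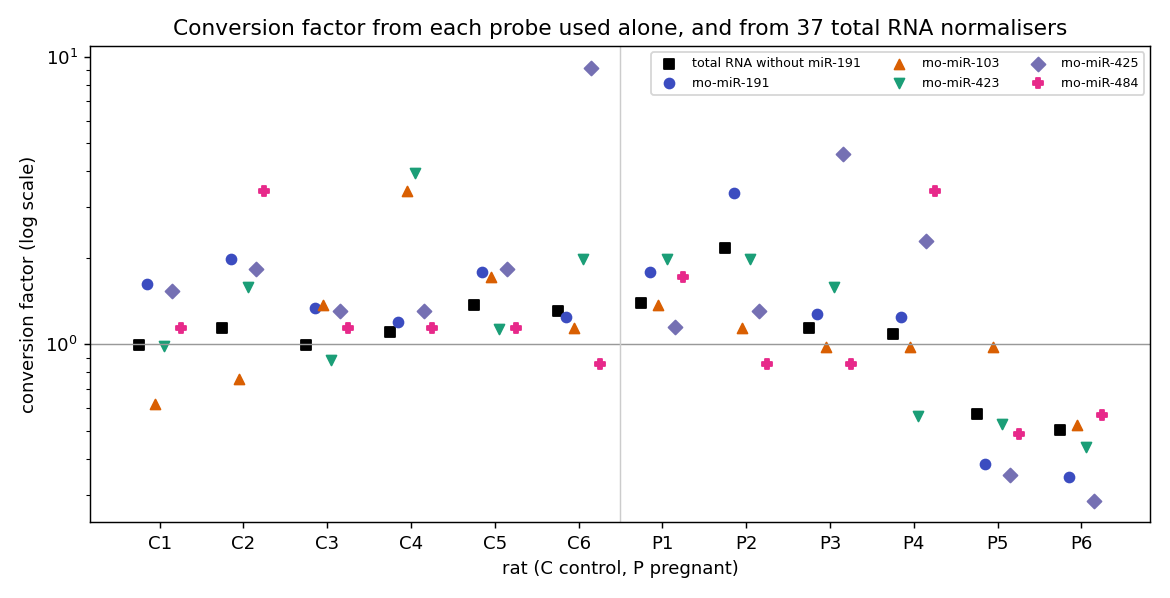
Conversion factor (log axis) of each rat from 1 reference miRNA used alone (coloured symbols) and from the 37 other probes above background in all rats (black squares). Factors from miR-191 follow the black squares within 0.669 to 1.75 times, while those from miR-425 reach 9.17 in C6.

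When the edgeR fit was scaled to a single reference miRNA, 0 of 187 probes were called in each of the 5 cases. Without adjustment, scaling to miR-191 left 10 probes under 0.05, of which 1 was higher and 9 were lower in pregnant rats, against 10 higher and 1 lower under TMM. The same excess of lower probes was seen with library size and upper quartile scaling, given above, so it was not particular to a single reference. Scaling to miR-425 gave 0 higher and 10 lower, to miR-423 0 higher and 3 lower, to miR-103 1 higher and 0 lower and to miR-484 1 higher and 1 lower. The median log2 fold change of all tested probes was -0.28 when scaled to miR-191, -0.37 to miR-103, -0.53 to miR-423, -0.88 to miR-425 and -0.19 to miR-484, against 0.05 under TMM, -0.33 with library size and -0.11 with upper quartile scaling.

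A list of 16 further reference candidates for plasma, all found among the probes, gave a measure of the set. Of these, 9 passed the filter and 7 were above background in all 12 rats. By edgeR 0 of the 9 were called and 0 were under 0.05 without adjustment, and 8 of 9 had a positive log2 fold change with a median of 0.61, beside 104 of 187 and a median of 0.05 over all tested probes. This direction rested on pregnant rats 5 and 6, without which 1 of 9 was positive with a median of -0.33, beside 83 of 184 and -0.04, and 1 of the 9 was under 0.05 without adjustment. With library size 2 of 9 were positive with a median of -0.20, beside 24 of 187 and -0.33. The most stable of the list was miR-93, a member of the miR-17 family, with a stability value of 0.152 (53rd in the NormFinder run) and 18 to 110 counts over the rats. let-7a followed with 0.201 (118th). At the other end, miR-126 had 0.488 (186th) and miR-16, a widely used plasma reference, had 0.899 (the least stable of all). miR-16 was listed at 1 count in 2 pregnant rats, while its highest count was 1861. miR-24 was listed at 1 count in all 12 rats, as miR-107 was.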

How the data were processed

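The authors deposited raw nCounter counts per probe of the rat miRNA codeset, without correction for background or normalisation. Its rows were 420 endogenous, 5 exogenous and 4 mRNA probes in 12 rats, and 0 columns of values were left unused. The exporter is not given in the sources used here, and the negative control probes were not analysed here. In their place stood 4 exogenous probes without a spike-in, taken over from earlier work on these data. The members and lists were chosen with earlier results of these data known. Named were the 6 members, the reference list by stability, the 3 probes most like each member, the 5 most stable probes and the neighbours by mean count.

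From the counts were computed Poisson intervals, log2 CPM (TMM, prior count 2), NormFinder values and edgeR 4.0.16 quasi-likelihood tests (glmQLFit, glmQLFTest, R 4.3.3), Benjamini-Hochberg adjusted, on probes that reached 10 counts in 6 or more rats. Standard errors were derived from each F statistic and its fold change. Permutation tests were two-sided. Those of correlations were written with numpy 2.4.6, and those of group comparisons were written in R and enumerated all 924 assignments. Each rat gave 1 sample and was 1 replicate, so p-values measure the spread between rats. Of the 66 pairs of rats, 0 had identical counts, which shows only that no column was repeated. DESeq2 1.42.0, limma 3.58.1, other scalings, filters, backgrounds, age, a replicate block and leaving out each rat were tried as alternatives. Chosen after the counts had been seen were leaving out pregnant rats 5 and 6 together, scaling to miR-103, miR-423, miR-425 or miR-484, all settings for miR-107, miR-425 and miR-484 and for the pairs of members other than miR-103 or miR-191 with miR-423 and miR-103 with miR-191, and the settings of the candidate list. The edgeR comparison and the NormFinder calculation were tested on simulated data.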

Additional observations from a re-analysis of the deposited data

Results flagged for a closer look

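In 5 of 20 groups of 6 rats, 1 rat lay far from the other 5, with a gap to its nearest neighbour above 0.625 of the range. Chance alone gives about 1 in 20 such groups, and raw and scaled values of the same rat are not separate cases. miR-103 had 13 counts in pregnant rat 6 and 5 to 7 counts in the other pregnant rats. miR-425 had 1 count in control rat 6 and 5 to 7 counts in the other control rats, and its log2 CPM of 8.10 there compared with 9.43 to 9.82. miR-484 had 1 count in control rat 2 and 3 to 4 counts in the other control rats, and its log2 CPM of 8.18 there compared with 8.77 to 9.09. Each of these cases rests on a difference of 2 to 6 counts from the nearest rat.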

How the results depend on the processing

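Of 536 values under alternatives, 428 were taken as unchanged. For fold changes and correlations this meant the same direction and side of the threshold. For stability values it meant a difference of at most the SD over the runs that left out each rat. Counts of probes or rats had to be equal or within a fixed fold of the main count. The count of called probes was 0 in all 32 alternatives, while the count under 0.05 without adjustment, 11 in the report, ran from 1 (methods' t-test, scaling to miR-103) to 20 (no filter), and was 7 without control rat 5 or pregnant rat 6 and 19 without pregnant rat 2 or without pregnant rats 5 and 6. No adjusted p of a member passed the threshold under any alternative (0.325 or more). The causes of the changes were not tested.

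Fold changes that turned were, under library size, -0.30 for miR-103, -0.013 for miR-191 and -0.21 for miR-484. Scaled to miR-191 they were -0.31 for miR-103, -0.013 for miR-423 and -0.19 for miR-484. Scaled to miR-423 they were -0.31 for miR-103, -0.29 for miR-191 and -0.21 for miR-484, and scaled to miR-425 -0.59, -0.55 and -0.64, with -0.12 for miR-423. Scaled to miR-484, miR-103 was at -0.17, and with the background mean subtracted miR-484 was at -0.084. Leaving out each rat gave 0.06 to 0.41 for miR-103, 0.36 to 0.83 for miR-191, 0.47 to 0.81 for miR-423, 0.80 to 1.36 for miR-425 and 0.27 to 0.54 for miR-484.

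Above the mean of the stand-in probes were miR-103 in 1 rat and miR-423 in 3. At mean + 2 SD miR-423 was in 0 and miR-425 in 1, with mRNA probes as background they were in 2 and 1, and with 5 exogenous probes in 0 and 1. miR-191 was in 8 rats at mean + 2 SD and in 11 with mRNA or with 5 exogenous probes.

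Stability values for miR-103, miR-191, miR-423, miR-425 and miR-484 were 0.481, 0.543, 0.547, 0.739 and 0.406 with the rats as 1 group, and 0.308, 0.239, 0.370, 0.362 and 0.295 without pregnant rats 5 and 6. From raw counts they were 0.263 for miR-103, 0.296 for miR-423, 0.437 for miR-425 and 0.301 for miR-484, and with a prior count of 0.5 they were 0.241, 0.270, 0.379 and 0.248. Among the 38 probes above background miR-191 was at 0.152, and at 0.147 without pregnant rats 5 and 6. Leaving out each rat gave 0.163 to 0.260 for miR-103, 0.188 to 0.346 for miR-191, 0.173 to 0.332 for miR-423, 0.193 to 0.400 for miR-425 and 0.135 to 0.198 for miR-484, with the highest value without pregnant rat 2 in each case.

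The correlation of miR-103 with miR-191 was -0.65 under library size, -0.13 by Spearman, -0.90 in control rats, -0.18 without pregnant rats 5 and 6, and -0.22 to 0.14 when each rat was left out, turning negative without pregnant rat 4 or 6. That of miR-103 with miR-423 was 0.66 in raw counts and 0.25 to 0.60 when each rat was left out. That of miR-191 with miR-423 was 0.63 in raw counts, -0.042 under library size, -0.79 in control rats and 0.40 to 0.68 when each rat was left out, passing 0.05 unadjusted without control rat 4. That of miR-191 with miR-425 was -0.40 without pregnant rats 5 and 6, which are also the 2 farthest from the median, -0.10 in control rats and 0.26 to 0.65 when each rat was left out, passing 0.05 unadjusted without control rat 6 or pregnant rat 2. Of the other 6 pairs, miR-423 with miR-425 (0.40) was 0.73 without control rat 4 and pregnant rat 4, the farthest from the median (permutation p = 0.0153, unadjusted), and -0.017 without pregnant rats 5 and 6. Without pregnant rats 5 and 6, miR-191 with miR-484 turned from 0.34 to -0.13 and miR-425 with miR-484 from 0.21 to -0.32, the latter also to -0.34 in control rats. With the same rats left out, miR-103 with miR-425 was -0.27, miR-103 with miR-484 -0.36 and miR-423 with miR-484 -0.46. miR-423 with miR-484 (-0.10) was 0.16 in raw counts, 0.10 by Spearman, 0.34 without the farthest rats and -0.25 to 0.27 when each rat was left out, turning positive without pregnant rat 4. miR-103 with miR-484 (-0.25) was 0.054 in raw counts and 0.15 under library size. miR-103 with miR-425 (-0.026) was 0.20 in raw counts, 0.052 without the farthest rats and -0.29 to 0.059 when each rat was left out, turning positive in 5 cases.

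Rats of the same number did not deviate together (correlations of -0.34 to 0.27, and 2 of 12 rats best correlated with their own number), so they share only a number. With the replicate number as a block 0 probes were called and 3 were under 0.05 without adjustment, and the log2 fold changes were 0.49 for miR-191, 0.25 for miR-103, 0.61 for miR-423, 0.98 for miR-425 and 0.35 for miR-484. Low counts limit every member but miR-191: the spread from counting alone was 33.0% to 54.1% of the mean over the 12 rats for the 4 others that varied.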
